A study of Mus musculus with 2 samples.

Results

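The strongest distal open sites of mouse gastrocnemius muscle were 528 regions of 68349 open sites that both libraries of the study shared. They were selected on measured values: a site was a member if the mean of its peak signal in both libraries was at least 10 and its midpoint lay more than 1000 bp from every protein-coding transcription start site (TSS). They made up 1.18% of the 44700 shared sites beyond that distance, which are called distal here. The other 44172 distal sites and the 4876 shared sites within 1000 bp of a protein-coding TSS that also reached a mean of 10, called strong promoter sites, serve for comparison. DNase-seq had been run on the gastrocnemius, the large calf muscle, of female B6CASTF1/J mice, the first-generation cross of C57BL/6J and CAST, at 14 days of age. There was 1 group with 2 biological replicates, no treatment and no other genotype. The label of each replicate names 3 females, and both carry the same donor record, so the replicates measure the spread between preparations of 1 kind of mouse and no more. Only replicate 2 has sequencing instruments in its label, 2 of them, so a batch of sequencing and the replicate cannot be told apart.

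DNase I cuts DNA where nucleosomes are displaced, and clusters of cuts mark promoters, enhancers and insulators. Promoters of widely used genes often lie in CpG islands, stretches rich in the dinucleotide CG that is rare elsewhere in mammalian genomes, and are bound by factors such as SP and KLF proteins, NRF1, ETS proteins and NFY. Distal sites are more often bound by factors specific to a cell type, in muscle MyoD, myogenin and MEF2, or by the insulator protein CTCF. Whole muscle holds fibre nuclei together with those of endothelial, connective tissue and satellite cells, and a peak does not say in which of them the DNA was open.

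As a check of the tissue, the strongest shared site within 1000 bp of the TSS of Ckm, the muscle creatine kinase gene, reached a peak signal of 13.1 (replicate 1) and 8.99 (replicate 2), and that of Myod1, a master regulator of muscle fate, 6.54 and 6.10. The signal was deposited with each peak, and no source used here states its scaling or the read totals behind it. The liver gene Alb and the cardiac myosin gene Myh6 had no shared site there. Replicate 1 had 87558 strict peaks with a median signal of 1.53, and replicate 2 had 79562 with a median of 1.53. A signal of 10 exceeded 93.2% of strict peaks in replicate 1 and 93.8% in replicate 2.

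The sequences of 5 of the 6 strongest members show what these sites look like. The member of rank 5 lies in an untranslated exon of Cers5 and is not printed. All are the plus strand of the C57BL/6J reference on build mm10, and the CAST allele was not read. Capitals mark exact matches, on either strand, to the CTCF core, to the SP/KLF box GGGCGGG, to CAGCTG (the E-box of MyoD and myogenin), to TGACGTCA (CREB) and to ACANNNTGT (the half-sites of the glucocorticoid and androgen response element). The SP/KLF box was present in 4 of the 5, and the site in Per1 has the response element, the E-box and the CREB site one after another.
Mid1 intron, chrX:169998241-169998400: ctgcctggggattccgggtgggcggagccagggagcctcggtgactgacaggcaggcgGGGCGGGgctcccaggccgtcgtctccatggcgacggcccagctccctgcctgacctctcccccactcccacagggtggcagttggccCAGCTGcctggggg
1700096K18Rik start, chr5:25529581-25529860: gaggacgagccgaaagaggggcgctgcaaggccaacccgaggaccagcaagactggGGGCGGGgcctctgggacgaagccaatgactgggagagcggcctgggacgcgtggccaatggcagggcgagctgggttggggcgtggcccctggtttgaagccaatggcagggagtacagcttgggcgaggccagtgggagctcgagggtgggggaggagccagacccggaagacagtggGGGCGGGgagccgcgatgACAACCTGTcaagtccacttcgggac
2610005L07Rik start, chr8:20424741-20424920: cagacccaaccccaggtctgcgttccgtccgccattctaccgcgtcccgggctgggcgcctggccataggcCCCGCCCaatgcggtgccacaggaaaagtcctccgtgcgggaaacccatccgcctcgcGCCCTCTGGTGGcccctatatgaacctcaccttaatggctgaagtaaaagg
Gm21769 start, chr8:20122145-20122300: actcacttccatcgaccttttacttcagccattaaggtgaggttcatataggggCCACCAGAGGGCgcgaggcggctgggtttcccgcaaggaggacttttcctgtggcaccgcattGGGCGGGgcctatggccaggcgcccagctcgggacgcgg
Per1 intron, chr11:69097021-69097240: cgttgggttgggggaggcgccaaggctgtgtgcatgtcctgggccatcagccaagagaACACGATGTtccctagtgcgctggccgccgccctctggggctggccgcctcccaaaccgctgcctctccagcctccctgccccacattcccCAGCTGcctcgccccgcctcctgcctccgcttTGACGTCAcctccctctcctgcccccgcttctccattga

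Sites that stand for single motifs follow, each the strongest such member with the motif in its central 150 bp. In the site upstream of Malat1, an abundant nuclear long non-coding RNA, capitals mark the NRF1 motif GCGCANGCG and SP/KLF boxes. In the site at the start of Tmem250-ps, they mark CREB and 2 NRF1 motifs. In the intron of Nfatc2, a calcineurin-regulated factor, they mark the AP-1 motif TGANTCA. In the site downstream of Wnt10a they mark a loose form of the MEF2 motif. The middle bases of this form could be any letters, not only A or T, so a match need not be a MEF2 site. The site in the intron of Mnt, which encodes a MAX-binding repressor, was added after its values were seen, and there they mark CACGTG, the E-box of the clock and MYC factors, and SP/KLF boxes.
Upstream of Malat1, chr19:5803561-5803780: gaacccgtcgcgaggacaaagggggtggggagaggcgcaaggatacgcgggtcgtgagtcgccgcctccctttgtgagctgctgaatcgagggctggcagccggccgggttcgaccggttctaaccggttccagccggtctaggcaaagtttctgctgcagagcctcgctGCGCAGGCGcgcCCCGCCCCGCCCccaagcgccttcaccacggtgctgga
Tmem250-ps start, chr2:26140461-26140700: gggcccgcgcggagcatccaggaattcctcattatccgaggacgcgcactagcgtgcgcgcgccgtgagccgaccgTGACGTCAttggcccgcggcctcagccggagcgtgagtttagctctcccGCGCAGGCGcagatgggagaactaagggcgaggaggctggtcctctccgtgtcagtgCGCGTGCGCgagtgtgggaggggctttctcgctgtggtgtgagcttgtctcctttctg
Nfatc2 intron, chr2:168525001-168525180: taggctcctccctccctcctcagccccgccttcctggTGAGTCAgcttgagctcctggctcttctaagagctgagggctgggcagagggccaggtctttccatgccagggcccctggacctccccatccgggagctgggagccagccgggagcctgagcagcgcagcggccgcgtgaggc
Downstream of Wnt10a, chr1:74816901-74817100: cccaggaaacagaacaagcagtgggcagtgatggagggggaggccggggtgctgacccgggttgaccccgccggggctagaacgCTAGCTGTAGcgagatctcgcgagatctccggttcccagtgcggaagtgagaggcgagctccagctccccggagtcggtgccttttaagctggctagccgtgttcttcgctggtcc
Mnt intron, chr11:74832181-74832400: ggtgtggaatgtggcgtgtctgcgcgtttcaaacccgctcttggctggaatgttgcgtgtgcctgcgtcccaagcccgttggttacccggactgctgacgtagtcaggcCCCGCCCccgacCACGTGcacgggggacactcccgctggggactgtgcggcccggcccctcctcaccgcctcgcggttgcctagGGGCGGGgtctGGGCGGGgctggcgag

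The signals of the members are the values they were chosen by and are given as a description. In replicate 1 they ran between 9.86 and 46.8 with a median of 14.4, and in replicate 2 between 6.67 and 35.0 with a median of 12.1. Both libraries reached 10 in 427 members, and of the other 101 replicate 2 was the lower one in 98. Only 67 members had a mean of 20 or more and 6 had 30 or more, while 188 lay below 12. The strong promoter sites covered a like range, with medians of 15.99 in replicate 1 and 13.6 in replicate 2. In whole muscle a lower signal from fewer cells with the site open and one from less cutting per cell cannot be told apart.

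The strongest member, in an intron of Mid1 near the end of chromosome X, had 46.8 in replicate 1 and 35.0 in replicate 2. Mid1 encodes a microtubule-associated ubiquitin ligase and spans the pseudoautosomal boundary in laboratory mice. The second lay 292 bp from the annotated start of the long non-coding RNA 1700096K18Rik on chromosome 5, with 44.3 and 34.9. Next came 2 sites on chromosome 8 with near-identical copies, at the starts of the pseudogenes 2610005L07Rik (41.1 and 34.0) and Gm21769 (35.3 and 30.7). The member in the untranslated exon of Cers5, a ceramide synthase gene, had 31.8 and 34.1, which made it 1 of 2 among the 25 strongest that were higher in replicate 2.

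Sixth was the intronic site of Per1, a repressor of the circadian clock, with 35.1 in replicate 1 and 27.2 in replicate 2. Members followed at the start of 2900052L18Rik upstream of Bahcc1 (33.9 and 25.6), in an intron of Gm42906 at 3 bp from the start of 1700028E10Rik (33.7 and 25.1), upstream of Zfp395 (31.2 and 26.9), in an intron of Nr1d1, which encodes the clock repressor REV-ERB alpha (33.0 and 24.8), and 999 bp from the start of Malat1 (31.7 and 24.9). Of the 25 strongest members, 15 were intergenic and 7 intronic, 19 were CpG-rich by the definition given below, 11 lay within 1000 bp of the TSS of a gene that is not protein-coding, and 4 had near-identical copies elsewhere in the genome.

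No gap in signal set members apart from the sites below the threshold. The 5 members nearest to it lay 37.6 kb downstream of Ski (10.7 in replicate 1 and 9.37 in replicate 2), in an intron of Ttc7 (11.3 and 8.71), in an intron of Bop1 near the tendon factor gene Scx (10.7 and 9.32), upstream of Ccdc9 (10.3 and 9.79) and in a coding exon of Synpo (10.6 and 9.43). The 5 distal sites just below it lay upstream of Zfp869 (11.7 and 8.30), in an intron of Rbms3 (12.04 and 7.92), 20.2 kb downstream of Tpm1, a tropomyosin gene (11.5 and 8.46), in an intron of Itga7, the laminin receptor of muscle (10.7 and 9.22), and upstream of Bcat2 (9.91 and 10.01).

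Base composition, which the choice of members did not use, set the members between the other distal sites and the promoters. The central 150 bp had a median GC content of 64.0% in members (quartiles 59.3 and 68.7%), 54.7% in other distal sites (50.7 and 58.7%) and 67.3% in strong promoter sites (62.7 and 71.3%). They held a median of 10 CG dinucleotides in members, 3 in other distal sites and 14 in strong promoter sites. Over the whole site, the number of CG dinucleotides relative to that given by the base counts had a median of 0.655 in members, 0.251 in other distal sites and 0.879 in strong promoter sites. Sites that over their whole length had a GC content of at least 55% and such a ratio of at least 0.65 are called CpG-rich here. By this measure 265 of 528 members were CpG-rich (50.2%, 95% Wilson interval 45.9 to 54.4%), 4.73% of other distal sites (4.53 to 4.93%) and 89.3% of strong promoter sites (88.4 to 90.2%). The remaining 263 members had a median GC content of 60.7% and 5 CG dinucleotides in the central 150 bp, above the 54.7% and 3 of other distal sites. Such intervals cover the counting of sites in these 2 libraries, not the spread between animals.

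**Figure D1:**
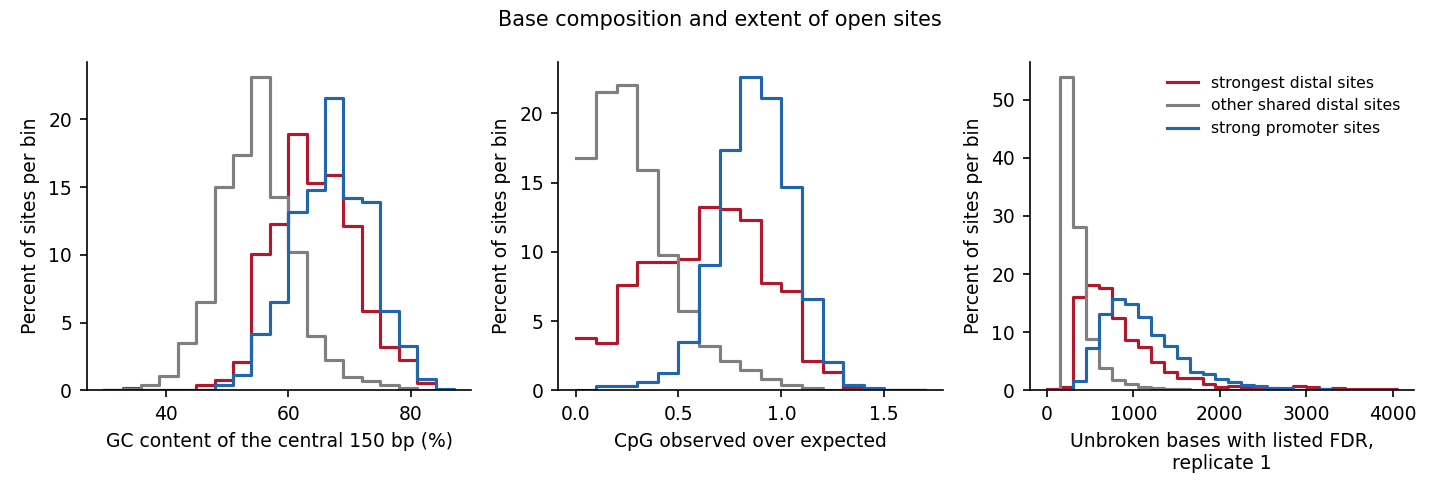
Histograms of GC content in the central 150 bp, of the CpG observed over expected ratio and of the unbroken length with a listed false discovery rate in replicate 1, as percent of sites per bin, for the 528 strongest distal sites, the 44172 other shared distal sites and the 4876 strong promoter sites. In each panel the strongest distal sites lie between the other distal sites and the promoters, and their ratio of observed to expected CpG is spread most widely.

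Many members lay at starts of transcripts that the rule did not cover. In members, 123 of 528 (23.3%, Wilson interval 19.9 to 27.1%) had their midpoint within 1000 bp of an annotated TSS of a gene that is not protein-coding, against 5.52% (5.32 to 5.74%) of other distal sites. These were 46 long intergenic non-coding RNAs, 30 processed transcripts, 13 antisense RNAs, 14 genes of a class still to be tested by experiment, 6 miRNAs and 14 others. RefSeq mRNA models placed a start of a coding gene within 1000 bp of 45 members (8.52%, 6.43 to 11.2%), against 2.20% (2.07 to 2.34%) of other distal sites, and for 10 of the 45 the model was a curated one. Under either annotation 160 members (30.3%, 26.5 to 34.4%) lay at another annotated start, against 7.38% (7.14 to 7.63%) of other distal sites. For these members the word distal refers to the protein-coding TSSs of 1 annotation.

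The named RNAs among them include several with a known role. Snhg8, a host gene of small nucleolar RNAs, had a member 77 bp from its start with 23.8 in replicate 1 and 21.995 in replicate 2. Its relatives Snhg5 (18.8 and 15.2, at 122 bp) and Snhg15 (17.0 and 16.2, at 91 bp) had one each, and Dleu2, the host of the miR-15/16 cluster, had members 39 bp (21.4 and 16.8) and 148 bp (14.7 and 12.1) from annotated starts. A second member at Malat1 lay 9 bp from its start, with 11.3 and 9.63, against 31.7 and 24.9 at the one further upstream. Among miRNAs, Mir22 had a member 645 bp away (15.9 and 14.7) and Mir210, a miRNA induced by low oxygen, one 428 bp away (16.3 and 13.8).

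Position relative to genes differed too. In members, 65.9% of midpoints were intergenic (61.8 to 69.8%) and 27.1% intronic (23.5 to 31.0%), against 51.3% (50.9 to 51.8%) and 42.8% (42.4 to 43.3%) of other distal sites. No member and 1.88% of other distal sites were repeat-masked over more than 50% of their length. Coding exons held 3.22% of members and 2.81% of other distal sites, and untranslated exons 3.03% and 2.33%. The median distance to a protein-coding TSS was 10095.5 bp in members and 19883.5 bp in other distal sites. Between 1000 and 2500 bp from such a TSS lay 91 members (17.2%, 14.3 to 20.7%), against 9.91% (9.64 to 10.2%) of other distal sites. An edge lay within 1000 bp of such a TSS in 12 members (2.27%) and 1.14% of other distal sites. Beyond 50 kb lay 78 members (14.8%), against 27.4% of other distal sites. The 5 most remote members lay 789 kb from Ddx18 (12.1 in replicate 1 and 20.01 in replicate 2), 390 kb from Atp23 (14.0 and 16.9), 352 kb from Actbl2 (11.7 and 8.86), where the start of the non-coding Gm38397 was 48 bp away, 300254 bp from Ubash3b (14.0 and 10.02) and 260 kb from Nfe2l3 (11.7 and 10.9). The share of distal sites that were members was 1.91% on chromosome 11 (65 of 3400, 1.503 to 2.429%) and 1.90% on chromosome 7 (50 of 2625, 1.448 to 2.502%), and 0.658% on chromosome 10 (15 of 2280, 0.399 to 1.08%).

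Across all distal sites these features changed with signal in steps, and most of the change lay above a signal of 5. CpG-rich sites made up 3.48% of distal sites with a mean signal under 1, 3.07% between 1 and 2, 5.84% between 2 and 5 and 16.2% between 5 and 10. Among members the share was 42.5% between 10 and 15, 62.1% between 15 and 20 and 73.1% (61.5 to 82.3%) at 20 and above. The share at a start of a gene that is not protein-coding followed the same order, with 4.99%, 4.74%, 6.22% and 9.89% in the 4 classes below the threshold and 19.0%, 27.2% and 40.3% (29.4 to 52.3%) in the 3 classes of members.

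**Figure D2:**
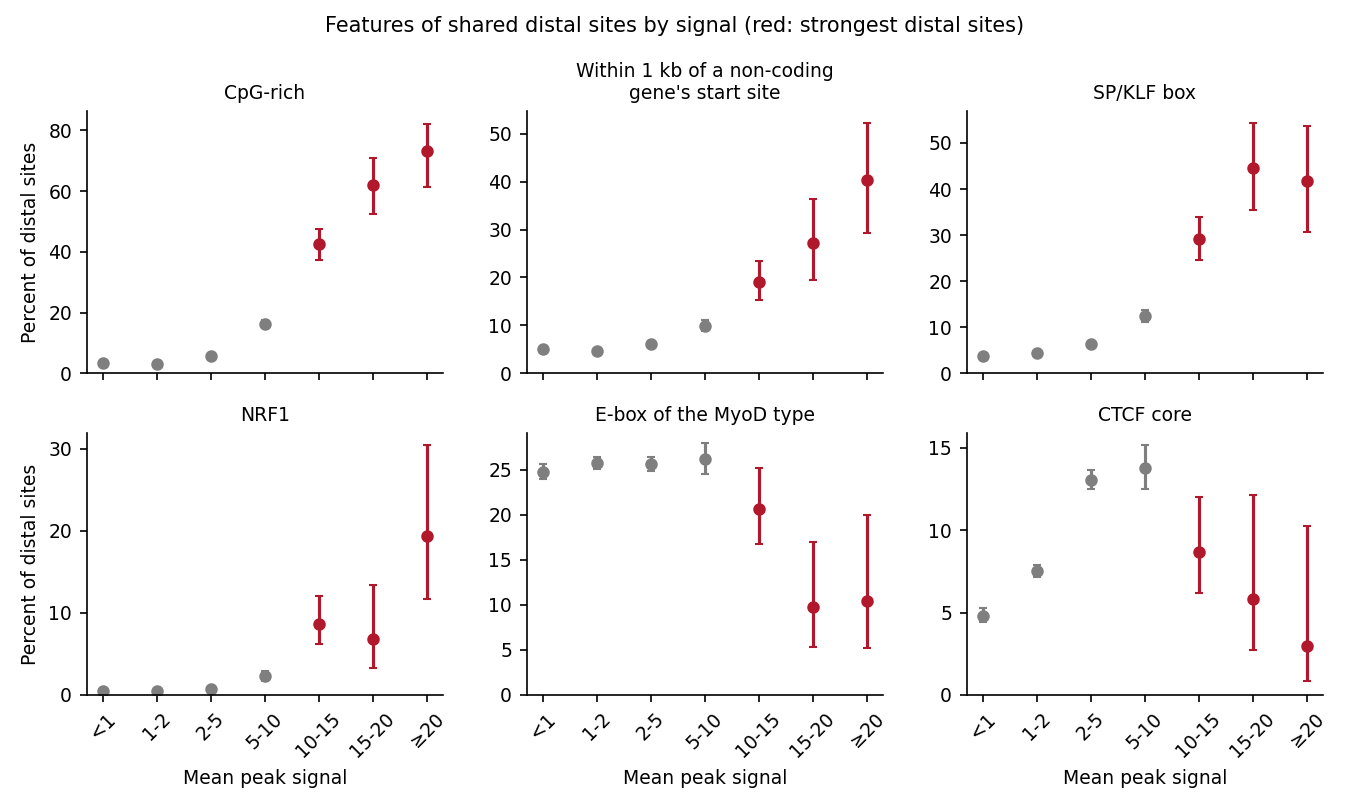
Percent of shared distal sites with each feature by class of mean peak signal. Points are shares, bars are 95% Wilson intervals, and the 3 classes of members (358, 103 and 67 sites) are red. CpG-rich sites, starts of non-coding genes, SP/KLF boxes and NRF1 are highest in members, the E-box of the MyoD type is lowest there, and CTCF is highest between signals of 2 and 10.

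In all, 26 motifs were examined, each as its exact letters on both strands within the central 150 bp. A match is a description of the letters and does not show that a factor was bound. The SP/KLF box was found in 178 members (33.7%, 29.8 to 37.9%), in 5.29% of other distal sites (5.09 to 5.50%) and in 52.1% of strong promoter sites. NRF1, an activator of nuclear genes for mitochondrial proteins, matched in 51 members (9.66%, 7.42 to 12.5%), in 0.634% of other distal sites (0.564 to 0.712%) and in 18.7% of strong promoter sites. CREB, the factor of cyclic AMP signalling, matched in 21 members (3.98%, 2.62 to 6.00%), in 0.378% of other distal sites (0.325 to 0.440%) and in 4.16% of strong promoter sites. NFY (CCAATCA) was found in 34 members (6.44%, 4.64 to 8.86%), in 1.57% of other distal sites (1.46 to 1.69%) and in 12.1% of strong promoter sites, and ETS (CCGGAAG) in 23 members (4.36%, 2.92 to 6.45%), in 1.63% of other distal sites (1.52 to 1.76%) and in 15.7% of strong promoter sites.

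The SP/KLF, NRF1, CREB and ETS letters contain CG, and their shares moved with composition. In CpG-rich sites the SP/KLF box was found in 119 of 265 members (44.9%) and in 496 of 2087 other distal sites (23.8%), and outside them in 59 of 263 members (22.4%) and 1841 of 42085 other distal sites (4.37%). For NRF1 the shares were 15.8% of members and 6.47% of other distal sites among CpG-rich sites, and 3.42% and 0.345% outside them. The order of members and other distal sites was thus the same in both classes of composition for these 2 motifs. It was so for CREB too, with 6.4% and 0.910% among CpG-rich sites and 1.52% and 0.352% outside them. For ETS the order turned, with 7.55% and 4.22% among CpG-rich sites, and 3 of 263 members (1.14%) and 1.51% outside them. That turn rests on those 3 members.

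CACGTG, the E-box bound by CLOCK with BMAL1, by USF and by MYC with MAX, was found in 57 members (10.8%, 8.43 to 13.7%), in 3.26% of other distal sites (3.09 to 3.43%) and in 8.37% of strong promoter sites. It was found in 38 of 265 CpG-rich members (14.3%) and 5.61% of CpG-rich other sites, and in 19 of 263 remaining members (7.22%) and 3.14% of remaining other sites. The E-box of the MyoD type, CAGCTG, showed the other order, with 91 members (17.2%, 14.3 to 20.7%), 25.5% of other distal sites (25.1 to 25.9%) and 6.83% of strong promoter sites. Outside CpG-rich sites 63 of 263 members (23.95%) and 26.1% of other distal sites had it. In the signal classes its share was 24.8%, 25.7%, 25.6% and 26.2% below the threshold, and 20.7%, 9.71% and 10.4% (5.15 to 20.03%) in members.

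The core motif of CTCF was found in 39 members (7.39%, 5.45 to 9.94%), in 8.86% of other distal sites (8.60 to 9.13%) and in 0.677% of strong promoter sites. Its share was not ordered by signal: it was 4.82%, 7.51%, 13.1% and 13.8% (12.5 to 15.2%) in the 4 classes below the threshold and 8.66%, 5.83% and 2.99% (0.823 to 10.2%) in the classes of members. With a signal threshold of 8 the share of members was 10.8%, above the 8.80% of the distal sites below it, so the order of members and other sites turned with the threshold. In CpG-rich sites the core was found in 11 of 265 members (4.15%) and in 3.45% of other distal sites. Outside them it was found in 28 of 263 members (10.65%) and in 9.13% of other distal sites. In both classes of composition the members thus had the higher share, the reverse of the order over all sites. Among CpG-rich sites this rests on 11 members. Outside CpG-rich sites the share was 4.97%, 7.73%, 13.55% and 15.24% in the 4 signal classes below the threshold. In the classes of members it was 11.65% (7.955 to 16.75%), 10.26% (4.06 to 23.6%) and 0.0% (0.0 to 17.6%). There too it was highest between signals of 2 and 10, and the higher share of members came from pooling the weaker classes. Of the 39 sites, 26 were neither CpG-rich nor at another annotated start. The 2 strongest were the chromosome 8 sites printed above, and the third lay 7.35 kb downstream of Bcan, a proteoglycan gene, with 19.0 in replicate 1 and 14.8 in replicate 2. CTCF members had a median mean signal of 11.6, against 13.4 in the 489 members without the motif, and a median of 6 CG dinucleotides against 10.

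The intervals of members and other distal sites overlapped for the remaining motifs that matched at least 15 members. AP-1 was found in 40 members (7.58%) and 7.99% of other distal sites, led by a site in an intron of Nfatc2 (20.4 in replicate 1 and 16.2 in replicate 2). Among CpG-rich sites AP-1 was found in 4.15% of members and 2.83% of other distal sites, and outside them in 11.03% and 8.25%. Members were thus higher in both classes of composition, on 11 of 265 and 29 of 263 members, and no intervals are given for these shares. TEAD (GGAATG) was found in 8.90% and 10.2%, RFX (GTTGCCA) in 3.60% and 3.36%, and ACANNNTGT in 3.41% and 4.30%. Outside CpG-rich sites the shares were 12.55% and 10.41% for TEAD, 3.80% and 3.43% for RFX, and 5.32% and 4.44% for ACANNNTGT. Among CpG-rich sites they were 5.28% and 5.70%, 3.396% and 1.965%, and 1.509% and 1.485%. MEF2 is the partner of the myogenic factors. The loose form of its motif, with any letters in the middle, matched in only 5 members (0.947%, 0.405 to 2.20%) and in 2.05% of other distal sites. The strongest of the 5 lay downstream of Wnt10a (13.3 and 10.7). Matches with only A or T in the middle were not counted apart, so these shares are not shares of MEF2 sites. SRF (CCWWWWWWGG, with W for A or T) had the other order. It matched in 9 members (1.705%, 0.899 to 3.21%) and in 0.659% of other distal sites (0.588 to 0.739%). YY1 (AAGATGGC) matched in 3 members, the REST motif part TCAGCACC in 4, led by a site near Scd3 (18.3 and 16.9), and the NFI palindrome in 1, near Irf2bpl (15.9 and 13.2). The nuclear receptor motif TCAAGGTCA (ERR) was found in 0 of 528 members, which allows a share of up to 0.722%, and in 0.199% of other distal sites.

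**Figure D3:**
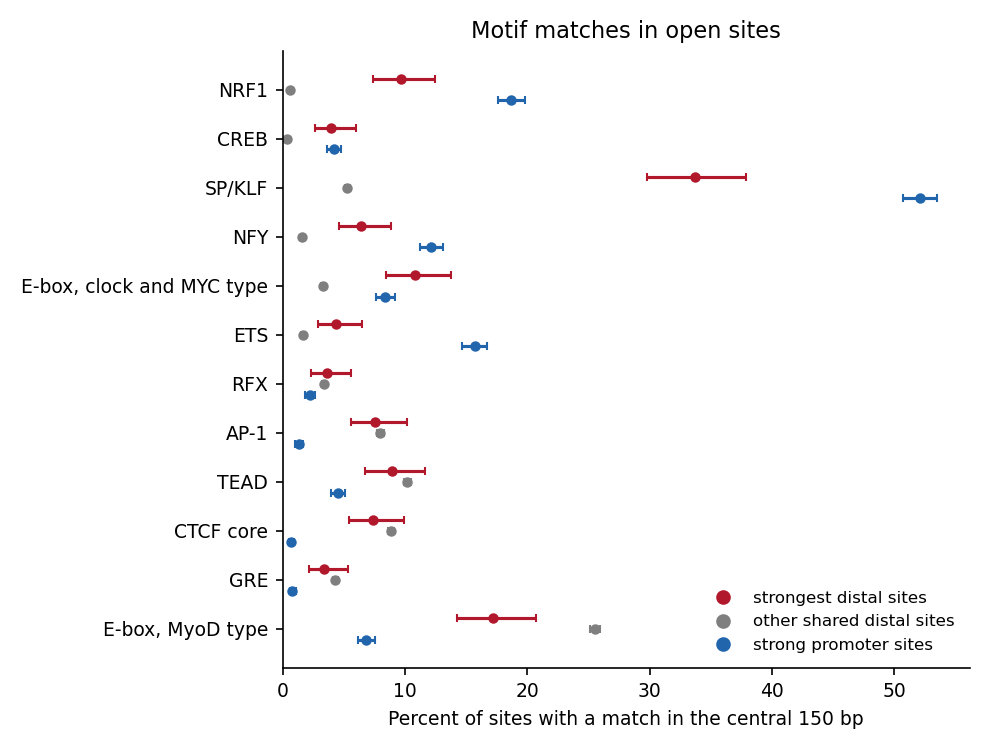
Percent of sites with an exact motif match in the central 150 bp, with 95% Wilson intervals, for the strongest distal sites, the other shared distal sites and the strong promoter sites, for the 12 motifs found in at least 15 members. SP/KLF matched 33.7% of members, 5.29% of other distal sites and 52.1% of promoters, while the E-box of the MyoD type matched 17.2%, 25.5% and 6.83%.

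Members were then looked up by their nearest protein-coding gene within 50 kb, which is a place name and not a shown target. Of 21924 protein-coding genes, 398 (1.82%) had a member, or 3.69% of the 10777 genes that had any shared distal site. In a list of 18 clock genes, 7 had at least 1 member, together 10 sites. Per1 has been described. Nr1d1 had a second member 8.19 kb upstream, with 24.03 in replicate 1 and 18.9 in replicate 2. Hlf, an output factor of the clock of the PAR bZIP family, had one 27.2 kb upstream (24.5 and 20.4), and its relative Tef had members 10.7 kb (13.7 and 10.03) and 15.7 kb (13.2 and 10.8) downstream of its nearest TSS. Cry2, a repressor that acts with the PER proteins, had one in an intron (14.6 and 12.5). The repressor gene Bhlhe40 had one 1.11 kb upstream (16.2 and 12.6), and Bhlhe41 had members 1.19 kb upstream (15.9 and 13.7) and 9.46 kb downstream (13.6 and 8.86).

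All 10 clock sites were higher in replicate 1, as were 94.1% of all members. CACGTG was present in the central window of 5 of the 10, against 10.8% of all members, CAGCTG in 4 and the response element ACANNNTGT in 1. The clock list had been chosen with earlier results of these data known, so its share is no independent evidence. The 3 strongest clock sites with CACGTG, chosen after their values were seen, are printed with this E-box in capitals, and the one upstream of Hlf holds it 3 times.
Upstream of Hlf, chr11:90417981-90418240: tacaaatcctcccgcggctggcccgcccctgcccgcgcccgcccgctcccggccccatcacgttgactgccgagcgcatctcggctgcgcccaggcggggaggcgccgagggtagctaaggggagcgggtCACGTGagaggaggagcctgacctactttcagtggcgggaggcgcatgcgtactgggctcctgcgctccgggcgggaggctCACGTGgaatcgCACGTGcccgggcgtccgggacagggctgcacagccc
Upstream of Nr1d1, chr11:98783401-98783640: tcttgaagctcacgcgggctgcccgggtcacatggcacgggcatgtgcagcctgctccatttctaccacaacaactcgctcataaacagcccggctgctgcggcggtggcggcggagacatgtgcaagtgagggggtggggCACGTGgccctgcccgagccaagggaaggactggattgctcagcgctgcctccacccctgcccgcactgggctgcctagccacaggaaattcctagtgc
Upstream of Bhlhe41, chr6:145866661-145866840: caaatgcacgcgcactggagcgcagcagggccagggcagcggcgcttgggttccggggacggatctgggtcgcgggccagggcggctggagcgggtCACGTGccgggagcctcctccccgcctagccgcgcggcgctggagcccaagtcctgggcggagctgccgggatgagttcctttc

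Of 32 muscle transcription factor genes, 6 had a member, together 10 sites. The strongest were a pair 9.48 and 9.87 kb downstream of Mef2d, a MEF2 factor, with 23.5 and 23.7 in replicate 1 and 18.8 and 19.5 in replicate 2. Both lay within 1000 bp of the start of the antisense gene 1700113A16Rik. Foxo3, an activator of atrophy genes, had members 1.01 kb (20.9 and 15.7) and 1.42 kb (10.7 and 9.55) upstream. Nfia had 2 (20.3 and 15.2, and 10.9 and 10.2) and Nfic 2 (11.7 and 9.72, and 11.6 and 9.74), both genes of the nuclear factor I family. The orphan receptor genes Nr4a3 and Nr4a1, induced by exercise, had 1 each (16.8 and 13.8, and 13.3 and 12.2).

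The sarcomere and metabolic lists were near the share of all genes. Of 40 sarcomere and Z-disc genes 1 had members (2.5%, against 1.82% of all protein-coding genes). It was Myl3, a slow and cardiac myosin light chain gene, with sites 13.1 kb (15.9 in replicate 1 and 12.7 in replicate 2) and 13.5 kb (11.3 and 9.15) downstream. Of the 33 sarcomere genes with any shared distal site this was 3.03%, against 3.69% of all such genes. Among 28 genes of calcium handling and the membrane, Casq1, which encodes the calcium store protein calsequestrin, had an intronic member (11.6 and 10.7), and Sgca, a dystrophin-complex gene, had one 2.80 kb upstream (12.8 and 14.3). Of 20 metabolic genes 0 had one, too few genes to set apart from a share of 1.82%. A member (13.4 and 8.50) nearest to Apol6 lay in an intron of the myoglobin gene Mb. Of 14 glucocorticoid-responsive genes 3 had one: Per1 again, Klf9 6.25 kb upstream (19.8 and 14.5) and Tsc22d3 22.3 kb downstream (12.03 and 8.60). Of 25 marker genes of other cells in the tissue 2 had one: the fibroblast collagen gene Col1a1 had one 7.23 kb upstream (16.4 and 12.8) and the tendon gene Scx one at the threshold.

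**Figure D4:**
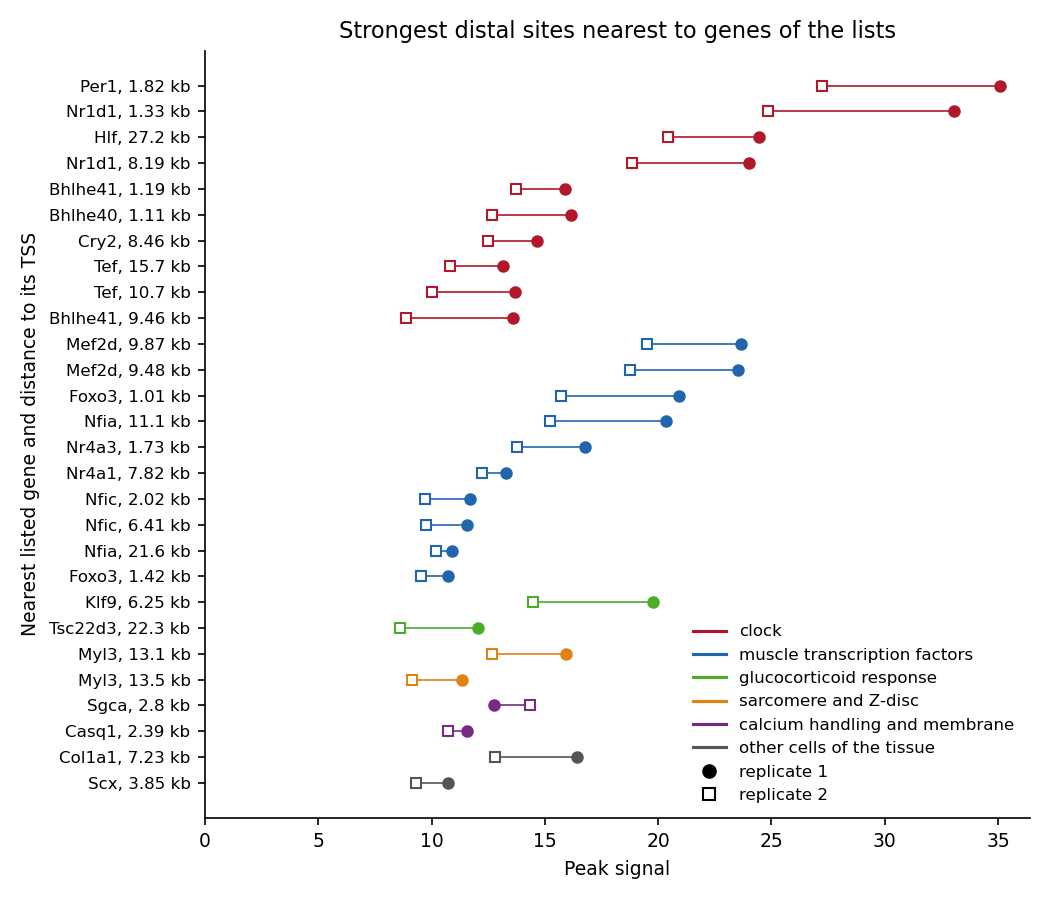
Peak signal of the members nearest to genes of the lists, named by gene and distance to its nearest TSS, in replicate 1 (filled circles) and replicate 2 (open squares). The clock genes Per1 and Nr1d1 have the highest signals (35.1 and 33.0 in replicate 1), and the site of Sgca is higher in replicate 2.

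Some members were close neighbours. Within 5 kb of each other lay 33 pairs of neighbouring members, 24 of them within 1 kb, with 62 members (11.7%) in all. In 20 of the 33 pairs both members had unbroken stretches with a listed false discovery rate of equal length in both libraries, so a pair of peaks can belong to 1 open stretch. No such share was computed for other sites. Kdm6b, which encodes a histone H3K27 demethylase, was nearest to 4, of which 3 lay between 3.99 and 5.30 kb upstream with signals in replicate 1 of 16.9, 18.9 and 15.1 and in replicate 2 of 13.7, 14.8 and 11.6, and 1 in its own intron (16.2 and 14.4). Predicted RefSeq mRNA starts of Kdm6b lay 479, 9 and 831 bp from the 3 upstream members and 71 bp from the intronic one, so all 4 lay at further annotated starts of the gene itself. The chromatin remodeller gene Chd2 had 3 upstream, at the start of 1810026B05Rik (28.9 and 23.4) and 53521 bp (19.7 and 14.7) and 76581 bp (19.1 and 17.8) away. Ptma, the prothymosin gene, had 3 upstream (27.4 and 21.1, 21.9 and 20.2, and 17.2 and 13.2), and Socs3, a feedback inhibitor of cytokine signalling, 3 downstream (21.7 and 19.99, 15.7 and 13.2, and 12.1 and 8.46). In all, 458 genes were nearest to a member at any distance and 61 of them to at least 2.

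Replicates were compared by the log2 ratio of replicate 2 to replicate 1, from which the median over all shared sites, -0.14, was subtracted. With 1 library on each side no test was possible. None of the 528 members differed by at least 2-fold after centring, while 0.373% of all 68349 shared sites did. The median ratio was -0.12 in members (quartiles -0.21 and -0.02), 0.00 in other distal sites (-0.21 and 0.20) and -0.10 in strong promoter sites (-0.19 and -0.01). Without centring, 497 of 528 members were higher in replicate 1.

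The lowest ratios were at a site 51.4 kb upstream of Cdkn2aipnl (26.02 in replicate 1 and 12.5 in replicate 2, -0.91), and at sites near Spsb1 (13.4 and 6.67, -0.87), Ptpn1 (17.9 and 10.1, -0.69), in an intron of Zbtb16, a zinc finger gene induced by glucocorticoids (19.8 and 11.7, -0.62), and near Mrc2 (13.6 and 8.12, -0.61). The sites near Spsb1, Ptpn1 and in Zbtb16 held ACANNNTGT, as did 5 of the 10 lowest in all. The 18 members with that element had a median of -0.25, against a median of -0.12 in the other members. Of the 18, 14 were not CpG-rich, and all members that were not CpG-rich had a median of -0.14. Of the 18, 17 were below 0, as were 410 of all 528 members (77.7%). In other distal sites the 1899 with the element had a median of -0.09. This grouping was chosen after the ratios were seen, so the difference is a description. The Zbtb16 site, chosen likewise and printed with the element in capitals, holds it 3 times.
Zbtb16 intron, chr9:48740261-48740420: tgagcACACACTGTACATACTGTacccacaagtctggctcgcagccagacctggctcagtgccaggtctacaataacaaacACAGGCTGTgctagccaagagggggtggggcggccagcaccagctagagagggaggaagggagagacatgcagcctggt

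The highest ratios were at the remote site near Ddx18 (0.86), at a site upstream of Hic2 (10.1 in replicate 1 and 15.8 in replicate 2, 0.79), at the start of Gm42418 on chromosome 17 (18.8 and 29.4, 0.78), in an intron of Jarid2 (12.4 and 18.4, 0.71) and in an intron of Zc3h7a (10.1 and 14.4, 0.65). The last 3 had near-identical copies elsewhere in the genome. In all, 16 members (3.03%, 1.87 to 4.87%) had a copy with at least 90% identity over at least 80% of the site, against 9 of 884 other distal sites (1.02%, 0.537 to 1.92%) taken as every 50th in genome order. Their median mean signal was 20.6, and their ratios ran between -0.28 and 0.78, with 7 of 16 above 0. They include the strongest site of all, with 6 copies on chromosomes X and Y, the chromosome 8 pair, a site in an untranslated exon of Lars2 (25.6 and 34.2) and sites near Igf2bp3 (19.6 and 25.2) and Kpna1 (20.2 and 23.2). The mice were female, and 8 shared distal sites, 0 of them members, lay on chromosome Y. No source used here states how reads that match several places were handled, and the part of that handling in these signals was not tested.

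**Figure D5:**
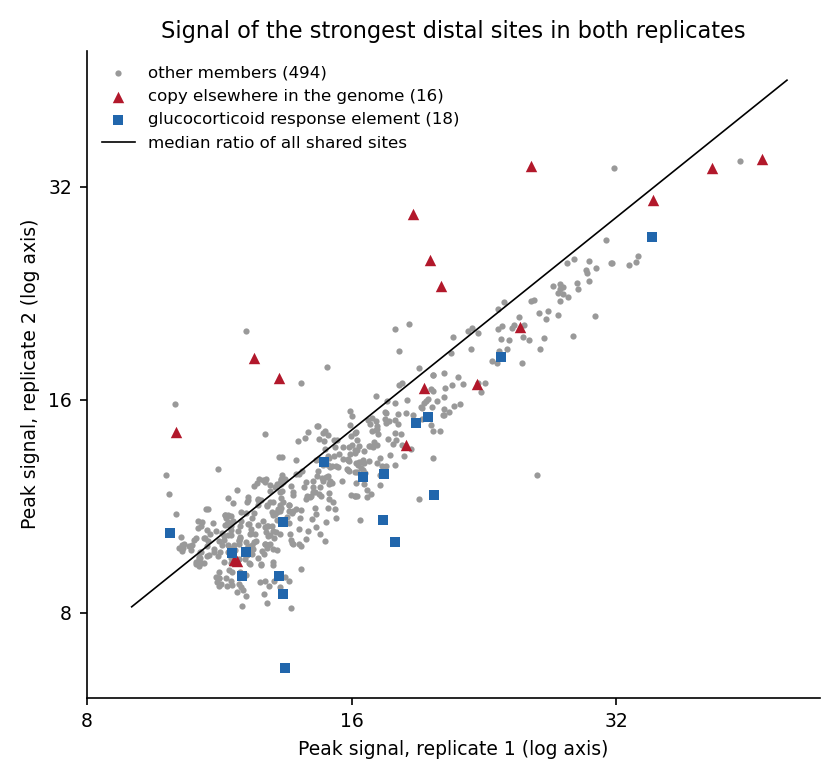
Peak signal of the 528 members in replicate 1 and replicate 2 on log axes, with members that have a copy elsewhere in the genome (16, triangles) and those with the letters ACANNNTGT (18, squares). The legend calls the squares glucocorticoid response element, but they are matches of letters only. The line is the median ratio of all shared sites; most members lie below it, some of the triangles lie far above it, and squares are among the points farthest below it.

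The extent of a site and its footprints come from the same cuts as the signal, so they are given as descriptions. Members had a median width of 200 bp and other distal sites of 180 bp. The unbroken stretch around a site over which the authors listed a false discovery rate, reported only below 0.05, had a median of 725 bases in replicate 1 and 698.5 in replicate 2 for members, against 290 and 276 for other distal sites and 1023 and 1011 for strong promoter sites. All 528 members (Wilson interval 99.3 to 100%) overlapped a footprint, a short protected stretch called at a false discovery rate of 0.01, in both libraries, against 95.5% of other distal sites. A member had a median of 4 footprints in each library and another distal site 3. Among members, the CpG-rich ones had a stretch of 866 bases in replicate 1 and 830 in replicate 2, against 611 and 570 in the rest.

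The members fell into 5 groups that do not overlap, formed after values were seen. Those with copies elsewhere were 16. Of the rest, 151 (28.6%) lay at another annotated start and had a median mean signal of 14.2. A further 149 (28.2%) were CpG-rich with no annotated start within 1000 bp, with a median of 13.7. CTCF cores without either feature made up 26 (4.92%, median 11.7), and 186 (35.2%, median 12.5) had none of these features. In this last group CAGCTG was found in 25.3%, AP-1 in 14.0% and the SP/KLF box in 21.5%, against 11.9%, 2.65% and 45.03% in the group at other annotated starts. The last group holds no CpG-rich sites by definition, so the 2 groups differ in composition. Among other distal sites that were not CpG-rich the 3 shares were 26.1%, 8.25% and 4.37%. From these sites, unlike the last group, those at annotated starts, with CTCF cores or with copies were not removed. Of the last group 76 of 186 were intronic.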

How the data were processed

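DNase-seq peaks of 2 libraries of 1 group were used. Per the labels and file headers, the authors deposited strict and permissive peak lists with a signal per peak, and false discovery rates (a kind of adjusted p-value) per base and for footprints, on mm10. No source used here states the scaling of the signal, the aligner or the callers. Strict peaks of both libraries that overlapped by at least 1 bp were merged, and a site took the highest deposited signal of each library. TSSs and contexts came from GENCODE M21 and RefSeq models, sequences from the GRCm38.p6 (mm10) reference. Copies were sought with BLAST 2.17.0 (megablast). Motifs were exact matches. Shares carry 95% Wilson intervals over sites, which are not replicates. No test was made, since there is 1 group and the members were chosen by the signal. Steps were tested on simulated data with Python 3.11.15. Members, gene lists and motifs were chosen with earlier results of these data known. Sites named by rule were drawn from the 25 strongest, the 5 on either side of the threshold, the extremes of the replicate ratio, the leaders of each motif, the 5 most remote, close pairs and members nearest to listed genes. Not every site of these sets is named in the text. Other named sites were chosen after their values were seen.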

Additional observations from a re-analysis of the deposited data

How the results depend on the processing

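No paired analysis was possible because both libraries belong to 1 group. With signal thresholds of 8 and 15 in place of 10 there were 977 and 170 members, and 979 when only the TSS of each gene record was used. In the same order the share with a CTCF core was 10.85, 4.706 and 4.494% (7.386% as reported), and that at a TSS of a gene that is not protein-coding 18.32, 32.35 and 18.79% (23.3%), while median GC content was 62.0, 66.0 and 66.0% (64.0%). At a threshold of 8 the CTCF share lay above that of other distal sites (8.796%), a turn in order. With CAGCTG the share was 10% at 15 and 13.38% with gene records, 22.92% in a 200 bp window and 23.67% over the whole site, below the 29.52 and 29.48% of other distal sites. A 200 bp window gave a median GC of 63.25%, and 1 mismatch gave 19.51% for CTCF, against 23.35% of other distal sites. With TSSs of all genes the share at another TSS is 0.0% by construction. The median replicate ratio was -0.1461 at a threshold of 15. Otherwise the cause was not tested. Without replicate 1 there were 436 members and without replicate 2 661. Leaving out either, CTCF ran from 7.11 to 7.262%, CAGCTG from 16.97 to 19.21%, GC from 62.67 to 64.67% and the share at another TSS from 21.18 to 25%, and a replicate ratio could not be given. All members had a footprint in both libraries under all 13 alternatives. Alternatives for composition and motifs added after seeing the data gave 37.67 to 66.47% CpG-rich members, 25.49 to 43.53% with the SP/KLF box, 8.598 to 12.35% with CACGTG and 6.448 to 12.77% with NRF1. Unknown read totals limit what a difference in signal between sites or libraries can show.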
